A study of Mus musculus with 12 samples.

Results

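The amino acid transporter genes examined here were the members of 7 solute carrier families, chosen by gene symbol: Slc1, Slc3, Slc6, Slc7, Slc36, Slc38 and Slc43. A gene entered when its symbol belonged to one of these families and its probe sets carried that symbol alone, and the imprinted Slc38a4 was left out. This gave 59 genes among the 19938 genes measured, read by 61 probe sets, since Slc38a1 and Slc38a9 had 2 each and the others 1. Slc6 had 18 members, Slc7 15, Slc38 10, Slc1 7, Slc36 4, Slc43 3 and Slc3 2. Because the choice went by symbol, it also holds carriers of other substrates, such as the creatine carrier Slc6a8, the noradrenaline carrier Slc6a2 and Slc43a3, which carries purine nucleobases.

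Amino acids cross the plasma membrane through carriers that differ in what drives them. Slc1, Slc6 and Slc38 carriers draw on the sodium gradient and can concentrate their substrates, most known Slc36 carriers run with protons, and many Slc7 carriers exchange one amino acid for another. Many Slc7 proteins are light chains that reach the surface only when bound to a heavy chain of the Slc3 family. Amino acids taken up in this way feed protein synthesis and one-carbon metabolism and are sensed at the lysosome by the mTORC1 kinase complex, and mouse embryonic stem (ES) cells are known to depend on threonine.

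The RNA came from Esrrb_R, an AINV15 rescue clone of mouse ES cells, as 3 biological replicates on each of 4 days, and each of the 12 samples had its own Affymetrix Mouse Gene 1.0 ST array. At every day the cells carried an rtTA activator, a hairpin RNA against their own Esrrb and a GFP-tagged Esrrb that the hairpin spares and that needs doxycycline (Dox) to be made. Day 0 cells had 1 µg/ml Dox, and days 1, 3 and 5 count from its removal, in serum with Lif. Per the labels the line was kept on mouse embryonic fibroblasts, and per the study's methods the experiments themselves used gelatin without feeders. One clone was used, and neither Dox nor time in culture had a control array of its own, so that a change from day 0 cannot be told apart from either. Values are log2 signals, in which a difference of 1 is a 2-fold change, and signals of different genes were not compared, since each probe set responds in its own way.

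The depletion was visible in the gene itself. Esrrb signal lay between 11.54 and 11.63 at day 0, between 9.09 and 9.16 at day 1, between 8.07 and 8.34 at day 3 and between 8.13 and 8.28 at day 5. Marker counts here are of genes past an adjusted p of 0.05 against day 0, in the limma model described below. Of 8 ES cell markers, 4, 6 and 8 passed as lower on days 1, 3 and 5, and none passed as higher. Of all genes 4.48%, 13.1% and 17.6% passed as lower on these days and 6.45%, 13.5% and 17.4% as higher. Markers of other cells moved too: of 9 fibroblast genes 5 were lower and 1 higher at day 3, and of 8 trophectoderm genes 3 were higher at day 5 and none lower. The mean signal over the fibroblast genes lay between 7.24 and 7.36 on the day 0 arrays and between 6.88 and 6.94 at day 3, and that over the trophectoderm genes between 7.51 and 7.58 at day 0 and between 8.20 and 8.34 at day 5. Of 8 endoderm genes 4 were higher on day 1, with none lower, and 5 higher and 2 lower on day 5, and of 7 neural genes 2 were higher and 3 lower on days 3 and 5 alike.

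A pair of short motifs was searched in the promoters of the members, because one is bound by Esrrb and the other answers to amino acid shortage. Windows of 250 bases before to 50 after a RefSeq start site (build GRCm38.p6) were at hand for 42 of the 59 members, and both strands were read. TNAAGGTCA, the extended binding motif of Esrrb, stood in the window of 1 member (2.38%) against 1.43% of all 27025 genes with a window. TGATGNAA, the amino acid response element bound by C/EBP and Atf factors, stood in 4 members (9.52%) against 4.51% of all genes. The 2 motifs share no match in any member. The stretches below are those of the members described later, 5′ to 3′ along the gene, with the matches in capitals.
Slc7a11 (cystine carrier), chr3:50443623-50443709, minus strand: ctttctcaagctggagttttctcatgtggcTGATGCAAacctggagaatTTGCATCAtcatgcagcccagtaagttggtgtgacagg
Slc1a4 (alanine, serine and cysteine carrier), chr11:20332710-20332747, minus strand: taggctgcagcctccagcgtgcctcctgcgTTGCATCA
Slc7a7 (light chain), chr14:54417938-54418115, minus strand: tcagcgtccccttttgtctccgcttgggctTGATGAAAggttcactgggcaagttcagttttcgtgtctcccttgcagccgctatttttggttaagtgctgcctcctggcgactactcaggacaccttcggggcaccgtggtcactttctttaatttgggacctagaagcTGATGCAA
Slc6a13 (GABA carrier), chr6:121303389-121303453, plus strand: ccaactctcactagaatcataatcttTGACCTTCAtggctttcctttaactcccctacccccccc
The first 3 stretches show TGATGNAA and the last TNAAGGTCA. Counted from the start site, the element begins at -66 and, on the other strand, at -47 in Slc7a11, at -4 in Slc1a4, and at -141 and -1 in Slc7a7, where the last lies at -243 of another start site. The fourth member with the element is Slc6a21, which was called in no comparison. A match of letters is a description and does not show that a factor binds there.

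Over the time course 30 of the 59 members changed (50.8%), against 45.6% of all genes, by limma's moderated F test at an adjusted p of 0.05, where the adjustment ran over every gene measured. Single comparisons used the same limma model and threshold, and a gene past it is said here to rise, fall or be called. At day 1, 4 members rose (6.78%, against 6.45% of all genes) and 1 fell (1.69%, against 4.48%). At day 3, 13 rose (22.0%, against 13.5%) and 6 fell (10.2%, against 13.1%). By day 5, 11 lay above day 0 (18.6%, against 17.4%) and 9 below it (15.3%, against 17.6%). The shares at day 5 are thus close to those of all genes, and the largest gap against day 0 in this model is that of the rises at day 3. The rises at day 1 depended on the model: they were 11 of 59 (18.6%) with array weights and with a trended robust variance, against 8.96% and 8.76% of all genes, and 9 of 27 (33.3%, against 14.6%) when dim genes, explained below, were left out. In bulk RNA a lower signal can come from fewer cells of a type or from less RNA per cell, and these cannot be told apart.

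**Figure D1:**
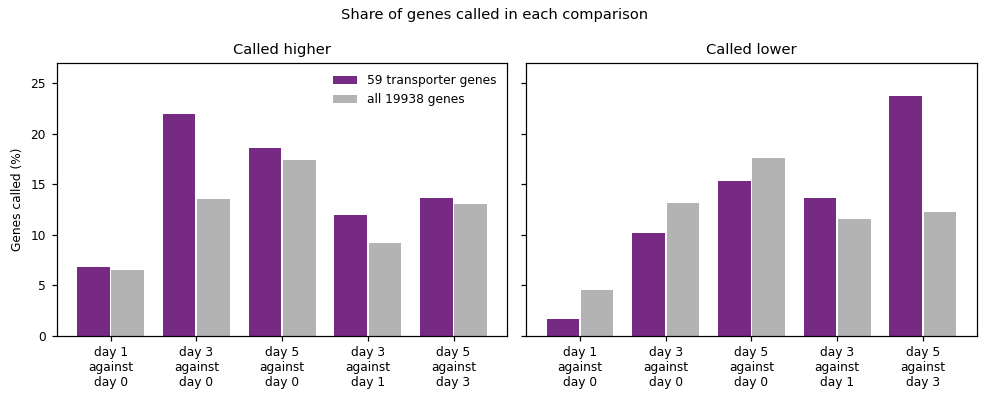
Percentage of genes called higher (left) and lower (right) in each of the 5 comparisons, for the 59 transporter genes (purple) and for all 19938 genes (grey). The purple bar stands furthest above the grey one for day 3 against day 0, higher (22.0% and 13.5%), and for day 5 against day 3, lower (23.7% and 12.2%).

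Later days were also compared with each other. From day 1 to day 3, 7 members rose (11.9%, against 9.20% of all genes) and 8 fell (13.6%, against 11.6%). From day 3 to day 5, 8 rose (13.6%, against 13.0%) and 14 fell (23.7%, against 12.2%). The balance of rises and falls rested on how the arrays were scaled. When each array was centred on its own median, 5 of the 59 members rose and 9 fell from day 1 to day 3. The calls over all 19938 genes there went from 1834 higher and 2317 lower to 1093 and 3110. From day 3 to day 5, 10 of the 59 members rose and 10 fell after centring. Over all genes the calls went from 2601 higher and 2442 lower to 3562 higher and 1251 lower. The share of members that fell from day 3 to day 5 thus stayed above that of all genes.

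Most changes were small. In all, 31 members were called at 1 or more of days 1, 3 and 5 against day 0 (52.5%, against 45.1% of all genes). Called changes of over 2-fold were found for 2 members (3.39%, against 3.91% of all genes), Slc36a4 and Slc6a14, both at day 5. The members' median log2 changes on days 1, 3 and 5 were 0.05, 0.04 and -0.02, beside 0.01, 0.00 and -0.02 over all genes. Slc43a1, Slc7a2 and Slc7a7 were called at each of the 3 days (5.08%, against 5.82% of all genes), and Slc7a7 was the only one called higher at one day and lower at another. A further 26 members were called in none of the 5 comparisons (44.1%, against 50.2% of all genes), with log2 changes from day 0 between -0.28 and 0.28. Only 3 of these, Slc36a1, Slc38a10 and Slc7a5, had a mean signal above 6.75, the 40th percentile of all genes, under which a gene is called dim here. In all 32 members were dim, and 5 of 18 in Slc6 and 5 of 15 in Slc7 lay above the limit. Of the members called nowhere, Slc1a1 at day 5 passed without day 1 replicate 2 or day 5 replicate 2 (0.048 and 0.014), Slc1a6 at day 3 without day 0 replicate 3 (0.03), Slc6a11 at days 3 and 5 without day 0 replicate 3 (0.013 and 0.026), and from day 3 to day 5 Slc1a6 passed without day 0 replicate 3 or day 5 replicate 3 (0.046 and 0.038) and Slc6a17 without day 5 replicate 2 (0.047).

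**Figure D2:**
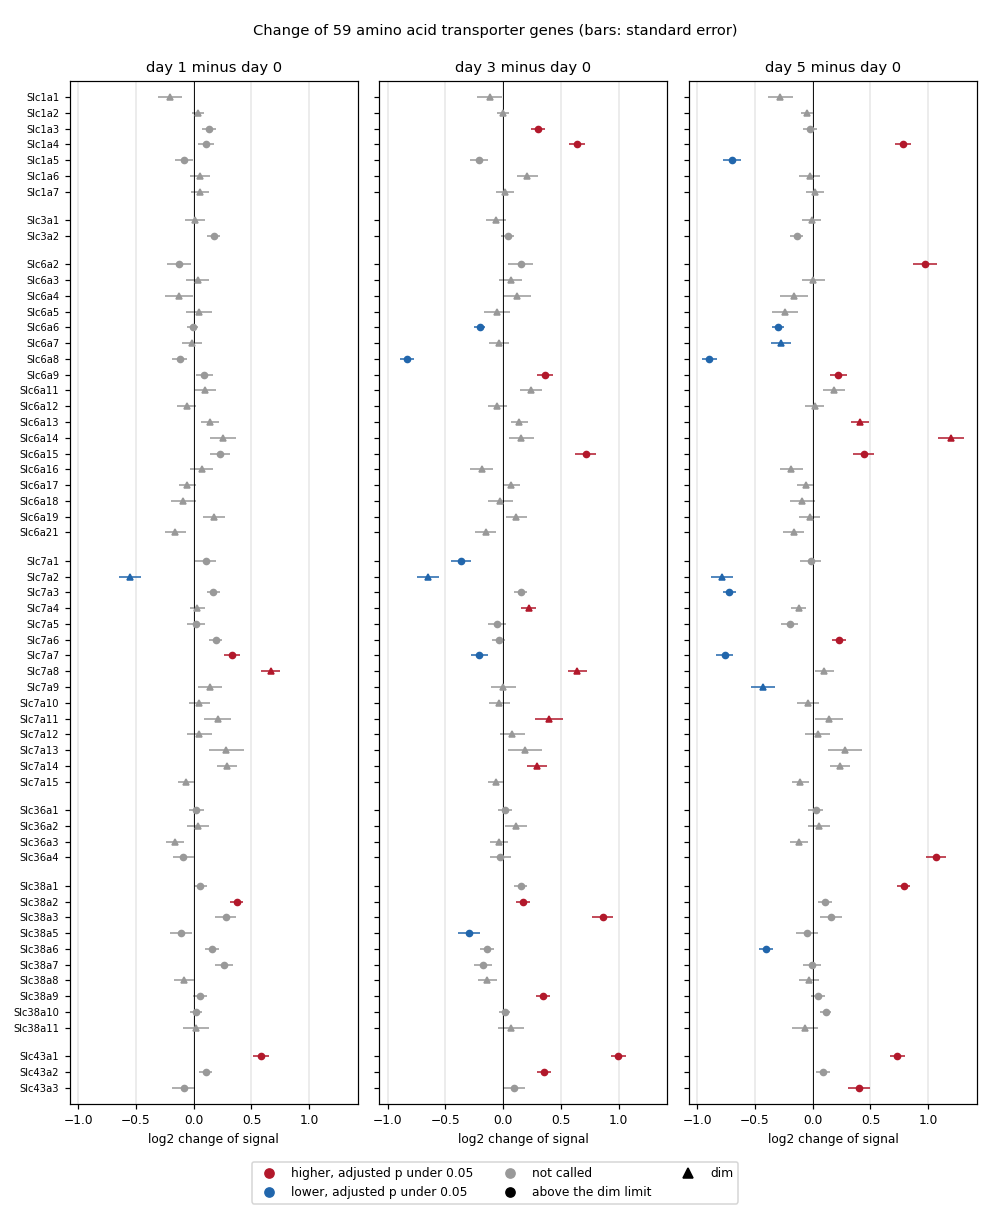
Log2 change of each of the 59 members at day 1, day 3 and day 5 relative to day 0 (points) with its standard error (bars), grouped by family, with circles for members above the dim limit, triangles for dim members, red for higher, blue for lower and grey for genes not called. Slc43a1 is red in all 3 panels and Slc7a2 blue in all 3, Slc36a4 and Slc6a14 lie beyond 1 at day 5, and Slc7a7 is red at day 1 and blue at days 3 and 5.

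The heavy chains come first, since the light chains depend on them. Slc3a2, the heavy chain of the CD98 complex, read 12.20, 12.25 and 12.32 at day 0, 12.40, 12.48 and 12.42 at day 1, 12.35, 12.27 and 12.28 at day 3 and 12.11, 12.07 and 12.19 at day 5. The day 1 arrays lay above and the day 5 arrays below those of day 0, and day 3 overlapped day 0. The log2 changes from day 0 of 0.17 ± 0.06 (SE), 0.04 ± 0.06 and -0.14 ± 0.06 did not pass the threshold (adjusted p of 0.073, 0.69 and 0.079), and only the fall from day 3 to day 5 did (-0.18 ± 0.06, adjusted p of 0.037). That fall was lost without any of day 1 replicates 1 and 3, the 3 day 3 arrays and day 5 replicates 1 and 2, with adjusted p from 0.051 to 0.12, and after centring (0.41). The change at day 1 passed without dim genes (0.029), with a trended robust variance (0.0064) and with array weights (0.028). That at day 5 passed in the first 2 of these settings (0.039 and 0.012). Slc3a1, the heavy chain used in kidney and gut, was dim and not called.

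Light chains of Slc3a2 went apart from one another and from the heavy chain. Slc7a5, which brings in leucine and other large neutral amino acids, read 10.93, 10.97 and 11.04 at day 0, 11.01, 10.94 and 11.04 at day 1, 10.91, 11.01 and 10.85 at day 3 and 10.75, 10.66 and 10.94 at day 5. Every later day overlapped day 0, and at day 5 the change was -0.20 ± 0.07 with a 95% interval from -0.36 to -0.04 (adjusted p of 0.057). Without day 5 replicate 3 this fall passed (0.009), as did that from day 3 to day 5 (0.04). Slc7a6, an exchanger of cationic for neutral amino acids, lay between 11.53 and 11.56 at day 0, 11.72 and 11.75 at day 1, 11.41 and 11.56 at day 3 and 11.68 and 11.82 at day 5. The day 1 and day 5 arrays lay above all those of days 0 and 3. The rise at day 5 was 0.23 ± 0.06 (adjusted p of 0.0077), that at day 1 was 0.19 ± 0.06 (0.056, or 0.04 without day 5 replicate 1), and the fall from day 1 to day 3 of -0.23 ± 0.06 (0.013) was lost without day 3 replicate 2 (0.066). The day 1 change also passed without dim genes (0.021), with a trended robust variance (0.006) and with array weights (0.028).

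Slc7a7, which shares the exchange of Slc7a6, read 10.49, 10.54 and 10.46 at day 0, 10.79, 10.86 and 10.82 at day 1, 10.17, 10.40 and 10.30 at day 3 and 9.85, 9.62 and 9.73 at day 5. No 2 days overlapped: day 1 was the highest and day 5 the lowest. It rose by 0.33 ± 0.07 at day 1 (adjusted p of 0.01), fell by 0.54 from day 1 to day 3 (0.00019) and by a further 0.56 from day 3 to day 5 (9.2e-05), and so ended 1.7-fold below day 0 (2.3e-06). Its place below day 0 at day 3, -0.21 ± 0.07 (0.049), is the least secure of these calls and was lost without any one of 9 arrays (each of days 0 and 1, day 3 replicates 1 and 3 and day 5 replicate 3), with adjusted p from 0.061 to 0.19, and with quantile normalization (0.083) or a replicate block (0.08). Slc7a6 and Slc7a7, with a like exchange, thus stood on opposite sides of day 0 at day 5, at 0.23 and -0.76.

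Slc7a8, a broad carrier of neutral amino acids, read 6.40, 6.18 and 6.38 at day 0, 7.02, 6.99 and 6.95 at day 1, 6.87, 7.15 and 6.87 at day 3 and 6.35, 6.48 and 6.44 at day 5. Days 1 and 3 lay clear above days 0 and 5, which overlapped. The rises were 1.59-fold at day 1 (0.67 ± 0.08, adjusted p of 0.00021) and 1.56-fold at day 3 (6.8e-05), followed by a fall from day 3 to day 5 of -0.54 ± 0.08 (0.00033). Its mean over all arrays was nonetheless dim.

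Slc7a11, which takes up cystine in exchange for glutamate, read 5.19, 5.27 and 5.36 at day 0, 5.36, 5.51 and 5.58 at day 1, 5.57, 5.86 and 5.59 at day 3 and 5.61, 5.12 and 5.52 at day 5. Only the day 3 arrays lay above all those of day 0. The rise at day 3 of 0.40 ± 0.12 (adjusted p of 0.024) came from a dim gene and was lost when any of day 0 replicate 1 (0.086), day 0 replicate 2 (0.06) and day 3 replicate 2 (0.11) was left out and with quantile normalization (0.051), while without day 5 replicate 2 the day 5 change passed as well (0.038). Slc7a9, the cystine carrier that pairs with Slc3a1, read 6.33, 6.54 and 6.62 at day 0, 6.79, 6.60 and 6.52 at day 1, 6.60, 6.61 and 6.28 at day 3 and 5.95, 6.12 and 6.12 at day 5. The day 5 arrays were the lowest of the 12, and the fall was 1.35-fold (-0.43 ± 0.11, 0.0062), also in a dim gene. Among all 10 light chains, rises against falls numbered 2 to 0, 2 to 1 and 1 to 2 on days 1, 3 and 5, which is too few to set apart from the shares of all genes given above.

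**Figure D3:**
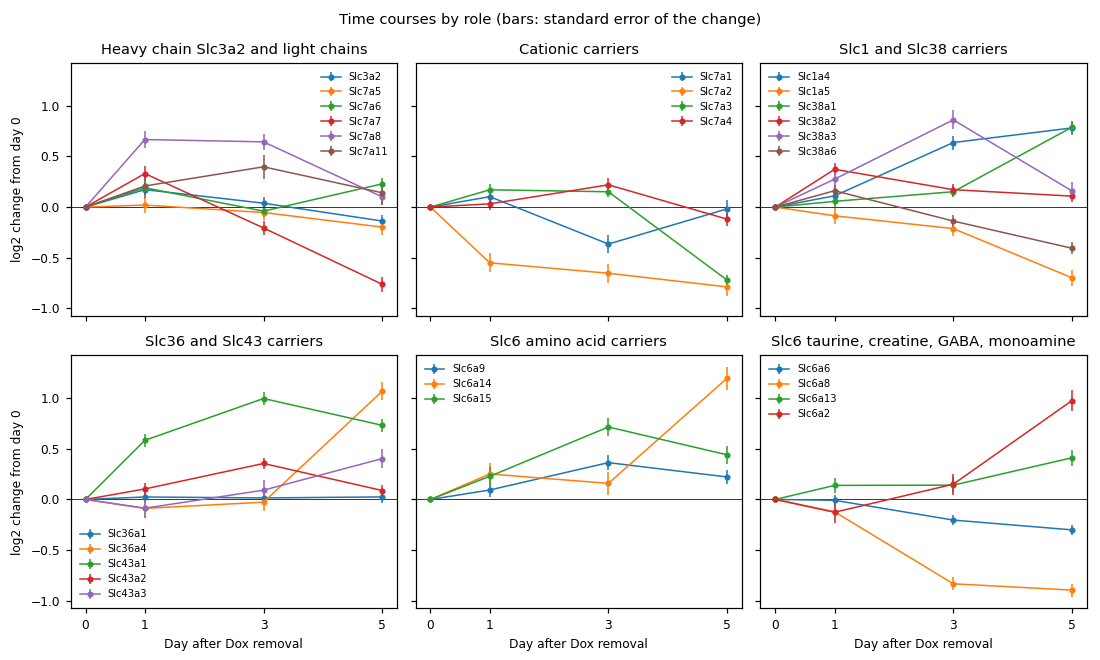
Log2 change from day 0 (y axis) by day after Dox removal (x axis, 0, 1, 3 and 5) for the heavy chain Slc3a2 with 5 light chains, the cationic carriers, and carriers of the Slc1 and Slc38, Slc36 and Slc43, and Slc6 families, with bars for the standard error of the change. Within a panel the lines part: by day 5 Slc7a7 stands at -0.76 and Slc7a6 at 0.23, Slc1a5 at -0.70 and Slc1a4 at 0.78.

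Carriers of arginine, lysine and ornithine had 3 different courses. Slc7a3 read 11.64, 11.67 and 11.72 at day 0, 11.84, 11.90 and 11.80 at day 1, 11.85, 11.83 and 11.80 at day 3 and 10.96, 11.01 and 10.89 at day 5. Days 1 and 3 lay a little above day 0 and day 5 well below all others. The changes of 0.17 ± 0.05 at day 1 and 0.15 ± 0.05 at day 3 stayed outside the threshold (adjusted p of 0.061 and 0.055, the latter 0.05 without day 5 replicate 2), and the fall from day 3 to day 5 was 1.83-fold (-0.87 ± 0.05, 3.4e-07). The changes at days 1 and 3 passed without dim genes (0.023 and 0.024) and with a trended robust variance (0.0073 and 0.0085). With array weights they passed as well (0.023 and 0.032).

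Slc7a1, the cationic carrier found in most cells, read 9.89, 9.80 and 10.03 at day 0, 9.97, 10.05 and 10.02 at day 1, 9.59, 9.46 and 9.59 at day 3 and 9.69, 9.92 and 10.06 at day 5. Day 3 was the low day, below every array of the other 3 days. The fall at day 3 was 1.29-fold (-0.36 ± 0.09, adjusted p of 0.0078), and the return from day 3 to day 5 of 0.35 ± 0.09 (0.011) missed the threshold without day 3 replicate 2 (0.05) or day 5 replicate 3 (0.054). Slc7a1 was the one member that fell at day 3 and rose by day 5 (1.69% of the members, against 3.03% of all genes).

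Slc7a2, a cationic carrier best known from liver and macrophages, read 7.24, 6.93 and 7.24 at day 0, 6.48, 6.68 and 6.59 at day 1, 6.51, 6.57 and 6.37 at day 3 and 6.22, 6.38 and 6.44 at day 5. All 9 later arrays lay below all 3 of day 0. It was the only member to fall at day 1 (-0.55 ± 0.09, adjusted p of 0.0025) and stood 1.57-fold below day 0 at day 3 (0.00019) and 1.73-fold below at day 5 (2.2e-05). The steps between days 1, 3 and 5 did not pass the threshold (0.52 and 0.35). Its mean over all arrays was dim, at 6.64. Its relatives Slc7a4 and Slc7a14, both dim, rose at day 3 by 0.22 and 0.29 (0.023 and 0.027), and each call was lost on leaving out the first or second array of day 0 or replicate 2 of day 3 (0.085 to 0.11), that of Slc7a14 also without day 3 replicate 3 (0.05) and that of Slc7a4 also when the arrays were centred (0.078). Without day 0 replicate 3, in contrast, Slc7a14 was also called at days 1 and 5 (0.0051 and 0.0025), as it was after centring (0.029 and 0.018).

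Slc1a4 and Slc1a5, the neutral amino acid carriers of the Slc1 family, moved in opposite directions. Slc1a4, which carries alanine, serine and cysteine, read 8.58, 8.72 and 8.77 at day 0, 8.83, 8.80 and 8.76 at day 1, 9.38, 9.25 and 9.34 at day 3 and 9.38, 9.45 and 9.58 at day 5. Days 3 and 5 lay above every array of days 0 and 1. The rise came between day 1 and day 3 (0.53 ± 0.07, adjusted p of 0.00018) and stood at 1.55-fold at day 3 (1.8e-05) and 1.72-fold at day 5 (1.4e-06).

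Slc1a5, a main route of glutamine uptake, read 9.28, 9.37 and 9.41 at day 0, 9.25, 9.26 and 9.29 at day 1, 9.16, 9.22 and 9.05 at day 3 and 8.69, 8.49 and 8.79 at day 5. Day 5 was the low day, and day 3 lay below days 0 and 1 without overlap. The fall at day 5 was 1.62-fold (-0.70 ± 0.08, adjusted p of 1e-05), of which -0.48 ± 0.08 fell between day 3 and day 5 (0.00046). At day 3 the change was -0.21 ± 0.08 (0.059), which passed without day 5 replicate 2 (0.023) or replicate 3 (0.041). Of the glutamate carriers Slc1a3, the one of glial cells, rose by 0.30 ± 0.06 at day 3 (0.0022) and fell by 0.33 by day 5 (0.0014). Slc1a1, Slc1a2, Slc1a6 and Slc1a7 were dim and not called, the widest change against day 0 being that of Slc1a1 at day 5 (-0.28 ± 0.11, 0.057).

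The Slc38 family had 8 of 10 members above the dim limit. Slc38a1 and Slc38a2, which both take up glutamine and alanine with sodium, lie side by side on chromosome 15 with no other protein-coding gene of RefSeq between them. Slc38a1 read 10.81, 10.88 and 10.78 at day 0, 10.88, 10.93 and 10.84 at day 1, 10.98, 10.99 and 10.97 at day 3 and 11.59, 11.56 and 11.69 at day 5. The 3 arrays of day 5 stood far above the other 9, with a rise of 1.73-fold over day 0 (0.79 ± 0.06, adjusted p of 1.8e-07). Its 2 probe sets gave 0.84 and 0.74 at day 5 but 0.02 and 0.28 at day 3, and with the brighter one alone day 3 was called as well (0.0012, against 0.06 for their mean). Their mean passed at day 3 without dim genes (0.027), with quantile normalization (0.023), with a trended robust variance (0.014) and with array weights (0.046).

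Slc38a2 read 12.42, 12.40 and 12.37 at day 0, 12.74, 12.81 and 12.75 at day 1, 12.58, 12.53 and 12.59 at day 3 and 12.39, 12.57 and 12.54 at day 5. Day 1 was the high day, day 3 lay between it and day 0, and day 5 overlapped day 0. The rise at day 1 was 1.29-fold (0.37 ± 0.06, adjusted p of 0.0012). The remaining rise at day 3 of 0.17 ± 0.06 (0.044) was lost without any one of 10 arrays (all of days 0, 1 and 3, and day 5 replicate 3), with adjusted p from 0.05 to 0.12, and also when the arrays were centred (0.17) or quantile normalized (0.099) and with a replicate block (0.068), and the fall from day 1 to day 3 of -0.20 ± 0.06 (0.025) without any one of the 6 arrays of those days (0.052 to 0.098). At day 5 the change was 0.11 ± 0.06 (0.18, or 0.039 without day 5 replicate 1). The 2 neighbours thus had their highest signals at different days, day 5 for Slc38a1 and day 1 for Slc38a2.

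Slc38a3, a glutamine and histidine carrier, read 6.64, 6.89 and 6.90 at day 0, 7.13, 6.98 and 7.14 at day 1, 7.58, 7.77 and 7.65 at day 3 and 6.84, 7.14 and 6.93 at day 5. Day 3 stood above all other arrays and day 5 overlapped day 0. It rose 1.82-fold at day 3 (0.86 ± 0.09, adjusted p of 1.7e-05) and fell 1.63-fold from there to day 5 (-0.70 ± 0.09, 0.00012). Slc38a5, which carries the same substrates, read 6.77, 6.86 and 7.10 at day 0, 6.77, 6.76 and 6.88 at day 1, 6.70, 6.46 and 6.69 at day 3 and 6.94, 6.72 and 6.92 at day 5. Its lowest arrays were those of day 3, where it fell by 0.29 ± 0.10 (0.037), a call lost when either day 0 replicate 2 (0.058) or 3 (0.14) or day 3 replicate 2 (0.16) was left out. Without day 0 replicate 3 or day 5 replicate 2 its change from day 3 to day 5 of 0.24 ± 0.10 passed (0.046 and 0.042).

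Among the other Slc38 genes, Slc38a9, a lysosomal protein that reports arginine to mTORC1, rose by 0.35 ± 0.06 at day 3 (adjusted p of 0.00088) and fell by 0.30 by day 5 (0.0027). Its 2 probe sets gave 0.28 and 0.42 at day 3. Slc38a7, a lysosomal carrier of glutamine, stood 0.26 ± 0.08 above day 0 at day 1 (0.053, or 0.047 and 0.033 without day 5 replicates 2 and 3) and fell by 0.44 from day 1 to day 3 (0.0016). Its day 1 change also passed without dim genes (0.019), with a trended robust variance (0.011) and with array weights (0.016). Slc38a6 fell from each of days 1 and 3 to the next day measured, by 0.30 and 0.27 (0.003 and 0.0047), and ended 1.32-fold below day 0 (0.00012). Slc38a10, Slc38a8 and Slc38a11 were not called.

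In the Slc36 family, 1 of 4 genes moved. Slc36a4, a carrier of proline and tryptophan, read 8.07, 8.13 and 7.96 at day 0, 7.93, 8.02 and 7.95 at day 1, 8.09, 7.93 and 8.06 at day 3 and 8.89, 9.25 and 9.23 at day 5. The first 9 arrays overlapped across days, and the 3 of day 5 lay above all of them. The rise from day 3 to day 5 was 2.13-fold (1.09 ± 0.09, adjusted p of 2.8e-06) and that over day 0 was 2.1-fold (9.8e-07). Slc36a1, a lysosomal relative, had changes of 0.02, 0.01 and 0.02 with 95% intervals that lay between -0.12 and 0.16. Slc36a1, Slc36a2 and Slc36a3 stand in a row on chromosome 11 with no other protein-coding gene between them, away from Slc36a4 on chromosome 9.

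All 3 Slc43 genes were called at some day. Slc43a1, a carrier of large neutral amino acids that needs no sodium, read 7.70, 7.61 and 7.58 at day 0, 8.18, 8.19 and 8.27 at day 1, 8.69, 8.66 and 8.53 at day 3 and 8.41, 8.26 and 8.41 at day 5. The days did not overlap except for days 1 and 5, and day 3 was the highest. It rose 1.5-fold at day 1 (0.58 ± 0.07, adjusted p of 1e-04), 1.99-fold at day 3 (1.00 ± 0.07, 2.3e-07) and stood 1.66-fold above day 0 at day 5 (1.7e-06), the largest rise of any member at day 3. Its relative Slc43a2 rose by 0.35 ± 0.06 at day 3 (0.00054) and fell by 0.27 by day 5 (0.0046), and Slc43a3 rose at day 5 by 0.40 ± 0.10 (0.0052). The falls of Slc43a1 (-0.26 ± 0.07, 0.0096) and Slc43a2 from day 3 to day 5 were lost when the arrays were centred (0.11 and 0.065). The rise of Slc43a3 from day 3 to day 5 of 0.31 ± 0.10 (0.031) was lost without day 3 replicates 2 or 3 or day 5 replicates 2 or 3 (0.079 to 0.12).

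**Figure D4:**
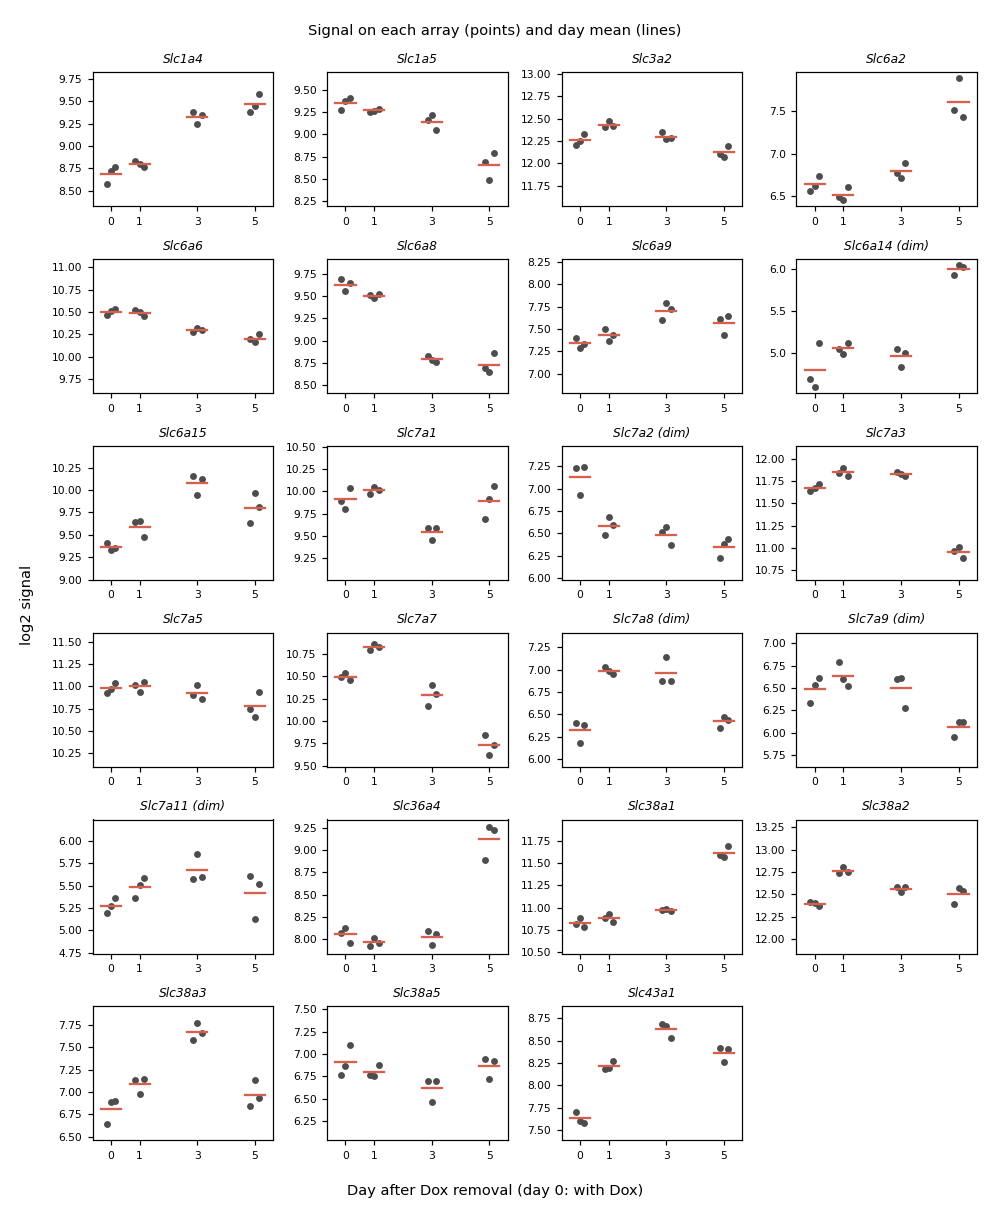
Log2 signal (y axis, a range of its own for each gene) on each of the 3 arrays a day (points) and the day mean (red lines) at days 0, 1, 3 and 5 (x axis) for the 23 members given array by array. Slc36a4, Slc38a1 and Slc6a14 lie at day 5 above all earlier arrays, Slc7a3 is low at day 5 alone, Slc38a3 is high at day 3 alone, and Slc43a1 peaks at day 3.

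In Slc6 the amino acid carriers that were called mostly rose. Slc6a15, a carrier of proline and branched-chain amino acids, read 9.41, 9.33 and 9.35 at day 0, 9.64, 9.66 and 9.48 at day 1, 10.16, 9.95 and 10.13 at day 3 and 9.63, 9.97 and 9.81 at day 5. All later arrays lay above day 0, with days 3 and 5 overlapping. It rose 1.64-fold at day 3 (0.71 ± 0.09, adjusted p of 5.3e-05) and stood 1.36-fold above day 0 at day 5 (0.0015), and its fall between these days of -0.27 ± 0.09 (0.038) was lost without day 3 replicates 1 or 3 or day 5 replicates 1 or 3 (0.084 to 0.15) and after centring (0.13).

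Slc6a9, the glycine carrier, read 7.40, 7.28 and 7.34 at day 0, 7.50, 7.36 and 7.43 at day 1, 7.60, 7.79 and 7.73 at day 3 and 7.61, 7.44 and 7.64 at day 5. Days 3 and 5 lay above day 0. The rise was 0.36 ± 0.07 at day 3 (adjusted p of 0.002) and 0.22 ± 0.07 at day 5 (0.029), and the day 5 call was lost on leaving out replicate 2 or 3 of day 0 (0.091 and 0.062) or replicate 1 or 3 of day 5 (0.089 and 0.11). From day 1 to day 3 it rose by 0.27 ± 0.07 (0.017), a call lost without day 1 replicate 2 (0.075) or day 3 replicates 2 or 3 (0.077 and 0.06) and when the arrays were centred (0.082).

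Slc6a14, which carries neutral and cationic amino acids, read 4.69, 4.60 and 5.12 at day 0, 5.05, 4.99 and 5.13 at day 1, 5.05, 4.83 and 5.01 at day 3 and 5.93, 6.05 and 6.02 at day 5. The day 5 arrays stood apart from the other 9, and day 0 replicate 3 was the highest of its day. It had the largest rise of any member against day 0, 2.29-fold at day 5 (1.20 ± 0.11, adjusted p of 2.3e-06), although the gene was dim. Without day 0 replicate 3 it was called at days 1 and 3 too (0.0069 and 0.01, against 0.19 and 0.36). Slc6a7, a proline carrier of brain and dim here, fell by 0.27 ± 0.09 at day 5 (0.026), a call lost on leaving out replicate 3 of day 0 (0.11) or replicate 1 or 3 of day 5 (0.055 and 0.095) and after centring (0.063).

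Slc6 carriers of other substrates divided as well. Slc6a8, the creatine carrier, read 9.68, 9.55 and 9.64 at day 0, 9.51, 9.48 and 9.53 at day 1, 8.83, 8.79 and 8.77 at day 3 and 8.69, 8.65 and 8.86 at day 5. Days 3 and 5 lay far below days 0 and 1. The fall came between day 1 and day 3 (-0.71 ± 0.06, adjusted p of 1.1e-05) and reached 1.78-fold against day 0 at day 3 (7.7e-07) and 1.86-fold at day 5 (2e-07), the largest fall of any member at both days.

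Slc6a6, the taurine carrier, read 10.46, 10.51 and 10.53 at day 0, 10.52, 10.50 and 10.46 at day 1, 10.28, 10.32 and 10.30 at day 3 and 10.20, 10.16 and 10.25 at day 5. Days 3 and 5 lay below days 0 and 1, with falls of 0.20 ± 0.05 (adjusted p of 0.0084) and 0.30 ± 0.05 (0.00036). The step from day 1 to day 3 of -0.20 ± 0.05 (0.014) was lost without day 1 replicate 1 (0.06) or replicate 2 (0.05).

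Slc6a2, the noradrenaline carrier, read 6.56, 6.62 and 6.74 at day 0, 6.49, 6.45 and 6.60 at day 1, 6.77, 6.71 and 6.89 at day 3 and 7.52, 7.90 and 7.43 at day 5. Day 5 was the high day, 1.97-fold over day 0 (0.97 ± 0.10, adjusted p of 8.3e-06), and from day 1 to day 3 the change was 0.28 ± 0.10 (0.083, or 0.014 without day 5 replicate 2). Slc6a13, the dim GABA carrier with an Esrrb motif in its promoter window, rose by 0.41 ± 0.08 at day 5 (0.0009), while its neighbour on chromosome 6, Slc6a12, was not called. The step of Slc6a13 from day 3 to day 5 of 0.27 ± 0.08 (0.02) was lost without day 3 replicate 3 (0.079) or day 5 replicates 1 or 2 (0.075 and 0.072). Of the genes with an amino acid response element, Slc7a11 rose at day 3, Slc1a4 rose at days 3 and 5, Slc7a7 rose at day 1 and fell later, and Slc6a21 was not called.

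Some members rose at day 3 and came down by day 5. They were 8 of 59 (13.6%, against 4.36% of all genes): Slc1a3, Slc38a3, Slc38a9, Slc43a1, Slc43a2, Slc6a15, Slc7a4 and Slc7a8. Both steps share the day 3 arrays, so they are not independent. With the arrays centred, 4 remained (6.78%, against 2.38% of all genes), namely Slc1a3, Slc38a3, Slc38a9 and Slc7a8. Leaving out any 1 array gave 7 to 9 such members, against 3.31% to 4.26% of all genes. With a trended robust variance and with array weights there were 9, Slc7a3 added, against 4.96% and 4.54% of all genes. Without dim genes there were 7 of 27, Slc7a3 among them, against 7.93%. Of the 8, all but Slc43a1 and Slc6a15 were no longer called against day 0 at day 5.

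Members called at day 5 alone were 7 that rose (11.9%, against 7.68% of all genes) and 5 that fell (8.47%, against 7.40%). With array weights these counts were 4 and 4, and over the 27 members above the dim limit, tested without dim genes, they were 3 and 1. The shares of all genes under these settings were not counted, so the counts cannot be set beside them. The 3 rises without dim genes include Slc6a2, whose mean over all arrays, 6.89, took in its high day 5 signals. Its means at days 0 and 1, 6.64 and 6.51, lay under the dim limit. Slc36a4, Slc38a1, Slc43a3, Slc6a13, Slc6a14, Slc6a2 and Slc7a6 rose, and Slc1a5, Slc38a6, Slc6a7, Slc7a3 and Slc7a9 fell. That an earlier day is not called does not show that nothing changed there, as the values of Slc1a5, Slc7a3 and Slc7a6 show. Of the 8 trophectoderm markers 3 were called at day 5, Krt18 at 2.50 ± 0.07, Krt7 at 1.79 ± 0.08 and Gata3 at 0.74 ± 0.10 over day 0, while the others, Cdx2 and Elf5 among them, were not called there. Of the 9 fibroblast genes 5 fell at day 3, Col1a1 and Col1a2 the most, at -0.98 ± 0.11 and -1.44 ± 0.10. Thy1 rose there (0.37 ± 0.10, adjusted p of 0.017), and the others, Pdgfrb and Lum among them, were not called. The part of these cells in the courses of the transporters was not tested.

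Other genes of amino acid supply were counted from fixed lists. Of 21 further genes of amino acid and peptide transport, 5 were called higher and 1 lower on day 1, 3 and 8 on day 3, and 4 and 5 on day 5. All genes gave 6.45% higher and 4.48% lower on day 1, 13.5% and 13.1% on day 3, and 17.4% and 17.6% on day 5, so that the list stood above them in the rises of day 1 and the falls of day 3, and close to them in the rises of days 3 and 5. Slc16a10, which lets aromatic amino acids out, rose at each day (0.44 ± 0.10, 0.62 ± 0.10 and 0.64 ± 0.10, adjusted p of 0.017, 0.00061 and 0.00028), as did the lysosomal cystine carrier Ctns (0.40, 0.68 and 0.80, with 0.032, 0.00044 and 7e-05). Slc15a1, a peptide carrier, fell at each day, by 0.61, 0.71 and 0.74 (0.0048, 0.00048 and 0.00022). The mitochondrial aspartate and glutamate carriers Slc25a12 and Slc25a13 fell by 0.97 and 0.30 at day 3.

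In the pathway by which mTORC1 senses amino acids, 7 of 28 genes were called higher and 0 lower on day 1, 9 and 2 on day 3, and 5 and 6 on day 5. The rises of days 1 and 3 lay above the shares of all genes (6.45% and 13.5%), while the day 5 counts lay near them (17.4% and 17.6%). All 28 genes lay above the dim limit, where calls were more frequent. Tested without dim genes, 1751 of 11963 genes were called higher at day 1 and 2787 of 11963 at day 3. Both are larger shares than those over all genes. The list was not counted in that setting. The median log2 change of the list was 0.10, 0.06 and 0.01, beside 0.01, 0.00 and -0.02 over all genes. Rragd, a Rag GTPase subunit, rose by 0.57 ± 0.07, 1.14 ± 0.07 and 0.60 ± 0.07 (adjusted p of 0.00021, 1.3e-07 and 1.9e-05). The arginine sensor gene Castor1 was highest at day 1 (0.62 ± 0.06, 2e-05), and Sesn3, a sestrin, rose at days 3 and 5 (0.68 and 0.88, 2.2e-06 and 1.2e-07). The other sestrins fell, Sesn2 at day 3 (-0.24, 0.013) and Sesn1 at day 5 (-0.37, 0.00074), and Rragb, another Rag subunit, rose at day 3 (0.49, 8.2e-05) and lay below day 0 at day 5 (-0.69, 2.2e-06).

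Most of the listed enzymes that use amino acids fell at day 5. Of 14 enzymes of threonine, glycine, methionine, proline, glutamine and branched-chain amino acid use, 4 were called higher and 2 lower on day 1, 4 and 5 on day 3, and 1 and 11 on day 5 (all genes: 17.4% and 17.6%), with a median day 5 change of -0.33 beside -0.02 over all genes. All 14 lay above the dim limit. Tested without dim genes, 3373 of 11963 genes were called higher and 3271 lower at day 5. Bcat1, which starts the breakdown of branched-chain amino acids, fell by 0.74, 1.11 and 1.39 (adjusted p of 2e-05, 1.3e-07 and 1e-08). The glycine cleavage gene Gldc rose at day 3 (0.31 ± 0.06, 0.0018) and lay 0.53 below day 0 at day 5 (-0.53 ± 0.06, 1.3e-05), and the threonine pathway gene Gcat changed from 0.30 at day 1 (0.025) to -0.31 at day 5 (0.0068). At the same day the transporters split into 11 higher and 9 lower.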

How the data were processed

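The 12 arrays were grouped by the day in their titles. The authors used RMA in Affymetrix Expression Console, whose version was not given in the sources used, and the deposited table holds log2 signals for each probe set (1.61 to 14.69, array medians 6.92 to 7.05). RMA brings array distributions together, so that a shift shared by most genes would not be seen.

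Probe sets were named from the platform annotation: 21789 of 35557 had 1 symbol, 1621 several and 12147 none. Of the single symbols 21698 were found in RefSeq (GRCm38.p6), which changed 0 of them. Single-symbol probe sets were averaged to 19938 genes, as in the study's methods. limma 3.58.1 in R 4.3.3 (lmFit, eBayes) was fitted to all genes with a mean per day (8 residual and 4.63 prior degrees of freedom), with Benjamini-Hochberg adjustment across every gene and a limit of 0.05 on the adjusted p. The methods' one-way analysis of variance was an alternative. The fit was first tested on simulated data. Tables and plots used Python 3.11.15, numpy 2.4.6, pandas 2.3.3 and matplotlib 3.10.9. Arrays have no read depth, and 3 a day limit the precision.

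Members given array by array were 15 fixed genes and, for each day against day 0, up to 6 called members with the largest rise and 6 with the largest fall. The members and lists were chosen with earlier results of these data known. The lists covered other amino acid and peptide carriers, mTORC1 sensing, amino acid enzymes and markers of ES cells, fibroblasts, neural cells, endoderm and trophectoderm. Other members and list genes given with values were named after their values were seen. Alternatives were a replicate block, the brightest probe set, no dim genes, quantile normalization, centred arrays, a trended robust variance, array weights, only the 2 days compared, and leaving out each array. Other data types of the study were not used here.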

Additional observations from a re-analysis of the deposited data

How the results depend on the processing

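Of the settings tried, 3 moved the number of members called at day 1 against day 0 by over 1.5 times: it was 5 (4 higher, 1 lower), and became 9 without dim genes (9 higher, 0 lower, of 27), 12 with a trended robust variance and 12 with array weights (11 higher, 1 lower in both). All genes were called higher in 6.45%, 14.6%, 8.76% and 8.96% and lower in 4.48%, 9.32%, 5.99% and 6.19% of cases under these settings, in the same order. The cause was not tested. Over the time course, the methods' one-way analysis of variance called 1 member with Bonferroni adjustment and over 2-fold change (420 of all genes). After Benjamini-Hochberg adjustment it called 30 members (8555 of all genes), beside 30 by the moderated F test (9083 of all genes). Leaving out single arrays gave 5 to 7 members at day 1, 13 to 21 at day 3, 19 to 22 at day 5, 12 to 16 from day 1 to day 3, 18 to 25 from day 3 to day 5 and 29 to 32 over the time course. The calls over all genes moved in these runs too. Without day 1 replicate 3 they were 734 higher and 502 lower at day 1, from 1286 and 894. Over the time course they ran from 8149 to 9143 of 19938 genes. The member counts were not set beside the share of all genes in each run. Centring the arrays moved the split of all calls to 1301 higher and 567 lower at day 1, 2005 and 2772 at day 3, 3859 and 2464 at day 5 and 1093 and 3110 from day 1 to day 3, from 1286 and 894, 2690 and 2604, 3474 and 3506, and 1834 and 2317. Over the alternatives, the log2 changes of the 23 members given array by array against day 0 stayed on the same side of the threshold in 1291 cases, lost it in 40 and gained it in 34, and no called change turned its direction. A replicate block, no dim genes, a trended robust variance and only the 2 days compared leave the log2 change itself unaltered. So does leaving out an array of a day not compared, so that a direction could not turn in these settings.

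Replicate numbers were checked for pairing: deviations from the day means of same-numbered arrays correlated between -0.17 and 0.07 over 18 pairs, and those of different numbers between -0.13 and 0.18 over 36. Same-numbered arrays thus showed no closer deviations than others, which cannot tell whether their samples were grown or handled together. With the replicate block 5, 18, 20, 15, 22 and 31 members were called in the 5 comparisons and over the time course, beside 5, 19, 20, 15, 22 and 30 without it. Over all genes the block gave 1069 higher and 773 lower at day 1, 2502 and 2397 at day 3, and 3332 and 3331 at day 5. It gave 1651 and 2097 from day 1 to day 3, 2445 and 2240 from day 3 to day 5, and 8484 over the time course. Each of these lay below the count without the block.

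Having 3 arrays a day and dim signals limits these data: 32 of the 59 members lay under the dim limit, and no background signal was used here, so that a signal near background could not be told from a low one. One clone was used, and neither Dox nor time had a control.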
